A study of Mus musculus with 24 samples.

Results

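The KLF4 and KLF7 motif constructs are 4 of the 62 designed fragments carried in the pools of a high-throughput screen of transcription factor motifs. They were taken by name: the fragment with the KLF4 motif (KLF4 WT), the one with its scrambled version (KLF4 Sc), and the same pair for KLF7 (KLF7 WT, KLF7 Sc). Of the 62 fragments, 60 form WT and Sc pairs of 30 motifs. Each of the 4 members had reads at 24 CpGs, of which 1 lies inside the inserted motif (position 1) and 23 outside it, 18 upstream (−291 to −32 bp) and 5 downstream (37, 46, 109, 151 and 252 bp), with positions counted from the 5′ end of the motif.

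KLF4 and KLF7 belong to the Krüppel-like factors, which bind GC-rich and CACCC-type DNA through zinc fingers at their C-terminal end and whose sites often hold a CpG. KLF4 is part of the pluripotency network of embryonic stem cells and one of the factors used to reprogram somatic cells, while KLF7 is known for its roles in neuronal differentiation and axon growth. A DNA methyltransferase adds methyl groups to cytosines of CpGs and TET enzymes oxidise them, and pioneer factors are transcription factors that can bind sites in closed chromatin.

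In the screen, called Hi-TransMet, each motif sat between barcodes at the centre of a bacterial fragment (FR1) that cassette exchange placed at the β-globin locus of mouse embryonic stem cells (ESCs). For −SssI pools the plasmid library went in untreated, and for +SssI pools the CpG methyltransferase M.SssI had methylated it in vitro beforehand. The inserted fragments were read by bisulfite amplicons with unique molecular identifiers, 1 amplicon upstream and 1 downstream of the motif. The pools were ESC −SssI, ESC +SssI, neural progenitors differentiated from ESCs (NP) −SssI, NP +SssI, and ESCs without TET1, TET2 and TET3 (TET TKO) +SssI. All 5 pools carried the same fragment in the same kind of exchange site. ESC and NP samples were labelled C57BL/6 X 129S5, with the wild type genotype in their RNA samples, and TET TKO samples C57BL/6 X 129/sv, so strain and knockout cannot be told apart. TET TKO cells are a line into which the exchange site was placed separately, through colonies picked after selection. Each condition was 1 pool, read in 8 runs for ESC −SssI, 5 for ESC +SssI, 7 for NP −SssI, 9 for NP +SssI and 3 for TET TKO +SssI, and which runs are biological or technical replicates is not given in the sources used here. There is therefore no replicate check of a condition: tests compare libraries, assume independent reads, and intervals cover counting error only. RNA sequencing gave 3 libraries each of ESC, NP and TET TKO cells, with total counts of 20570050, 21602345 and 23976914 in ESC, 20519702, 22132988 and 21214374 in NP, and 84377108, 80704741 and 93210102 in TET TKO.

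The targeted genes were checked first. Tet1 was at 65.9, 60.8 and 68.5 RPKM (reads normalised to gene length and library size) in ESC and at 13.2, 16.1 and 11.3 in TET TKO, and Tet2 at 20.5, 20.3 and 16.1 against 2.42, 2.70 and 2.32. Both were lower in every TET TKO library (log2 change −2.38 and −3.05, adjusted p = 7.02e-05 and 1.87e-05, edgeR's quasi-likelihood test with Benjamini-Hochberg adjustment, n = 3 each). Tet3, at 0.746, 0.631 and 0.770 RPKM in ESC and 0.561, 0.617 and 0.474 in TET TKO, stayed below 1 RPKM in all 6 libraries and was not tested. These counts cover whole genes, and which exons the knockout removed is not given in the sources used here, so remaining reads say nothing of function. In NP, Tet1 (5.45, 3.88 and 3.17 RPKM) and Tet2 (3.97, 2.59 and 3.35) were lower than in ESC (log2 −3.98 and −2.54, adjusted p = 1.89e-06 and 1.02e-05 in edgeR), and Tet3 (13.0, 5.09 and 5.35) was higher (log2 3.43, adjusted p = 8.26e-05).

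The labelled cell types carried their markers. All 4 ESC markers (Pou5f1, Nanog, Zfp42 and Esrrb) passed the test as lower in NP, with a summed level of 1132, 1160 and 1116 RPKM in ESC and 2.93, 5.87 and 1.94 in NP, and 3 of 4 NP markers (Pax6, Nes and Sox1) as higher, while Tubb3 had log2 0.60 (adjusted p = 0.103 in edgeR). In TET TKO cells the ESC markers summed to 638, 672 and 765 RPKM, and Zfp42 alone of the 4 passed the test (log2 −2.70, adjusted p = 7.59e-05 in edgeR). None of 3 tested NP markers was called in TET TKO, where Nes stood at 9.72, 15.4 and 7.83 RPKM against 4.37, 4.12 and 3.56 in ESC (adjusted p = 0.00585 in edgeR). Sox1 had log2 1.38 (adjusted p = 0.0599 in edgeR). Tubb3 went the other way, at 34.0, 59.6 and 22.8 RPKM against 67.3, 67.7 and 69.2 in ESC (log2 −0.93, adjusted p = 0.0480 in edgeR). The NP markers summed to 45.9, 78.0 and 31.4 RPKM in TET TKO and 72.7, 72.8 and 73.6 in ESC. Markers of other cells also moved with NP: all 3 endoderm genes were called higher, with sums of 17.3, 18.02 and 18.9 RPKM in NP, led by Foxa2 at 10.7, 8.42 and 11.1, against 0.674, 0.892 and 0.349 in ESC. The fibroblast collagens Col1a1 and Col1a2 summed to 8.86, 26.3 and 2.00 RPKM in NP and 1.21, 1.46 and 1.08 in ESC, with Col1a1 the more abundant. Neither was called in NP, with log2 2.84 for Col1a1 and 5.39 for Col1a2 (adjusted p = 0.00843 and 0.00147 in edgeR). Of the mesoderm markers T and Mesp1, summing to 0.162, 0.349 and 0.205 RPKM in NP, Mesp1 was at 0 counts in 2 of 3 NP libraries and was not tested, and T was not called. The trophoblast markers Cdx2 and Elf5 summed to 1.88, 0.769 and 1.86 RPKM in NP and 0.219, 0.283 and 0.0318 in ESC. Elf5 was at 0 in 1 ESC library and not tested. Cdx2 was not called (log2 3.06, adjusted p = 0.00736 in edgeR). In TET TKO cells T, Col1a1 and Col1a2 were tested and not called, while the endoderm and trophoblast genes were below the minimum level. The part of these other cells in the results was not tested, and in bulk RNA fewer cells of a type and less RNA per cell cannot be told apart.

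The 2 factors differed in how their RNA changed with differentiation. Klf4 (ENSMUSG00000003032, chromosome 4, 55527143 to 55532466, GRCm38) was at 70.8, 72.3 and 73.4 RPKM in ESC, at 35.9, 29.1 and 47.8 in TET TKO and at 2.79, 2.62 and 2.96 in NP. The 3 groups did not overlap, and their order was ESC, TET TKO, NP. Klf7 (ENSMUSG00000025959, chromosome 1, 64029447 to 64122282) was at 1.76, 1.58 and 1.47 RPKM in ESC, 1.80, 1.87 and 2.08 in NP, and 1.75, 2.85 and 3.36 in TET TKO. Klf7 was thus the less abundant of the pair in all 9 libraries, and its TET TKO libraries overlapped those of the other groups. Genes were called where the adjusted p was under 0.001 with a change of 3-fold or more. Klf4 was called lower in NP (26.1-fold, log2 −4.71, adjusted p = 2.58e-07 in edgeR) and was not called in TET TKO (log2 −1.06, adjusted p = 0.00386). Klf7 was called in neither comparison, with log2 0.25 (adjusted p = 0.239 in edgeR) in NP and 0.61 (adjusted p = 0.0929) in TET TKO.

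Other Krüppel-like and SP factors share the zinc finger type and bind related sequences. Of 27 listed names, 26 were matched, and 20 passed the minimum of 1 RPKM in at least 1 library for the NP comparison. In NP, 5 of the 20 were called lower, against 9.98% of 15197 genes, and 2 higher, against 12.4%, with a median log2 change of −0.85 over the 20 and 0.03 over all genes tested. The 5 were Klf4, Klf2 (from 165, 174 and 195 RPKM in ESC to 0.864, 2.65 and 0.958 in NP), Klf5 (74.2, 79.8 and 68.7 to 3.74, 5.59 and 4.74), Klf8 (13.9, 14.9 and 12.3 to 0.352, 0.798 and 0.564) and Klf9 (52.1, 52.7 and 47.3 to 1.90, 3.20 and 1.51). Klf2 and Klf5 are, with Klf4, known as regulators of naive pluripotency. Their log2 changes were −6.90 for Klf2, −4.00 for Klf5, −4.59 for Klf8 and −4.54 for Klf9. The 2 higher genes were Sp8, a regulator of forebrain and limb development (0.0412, 0.121 and 0.0178 RPKM in ESC, 9.14, 3.29 and 4.95 in NP, log2 6.58), and Sp5, a target of Wnt signalling (0.716, 0.981 and 0.736 in ESC, 3.02, 5.31 and 3.39 in NP, log2 2.25). The Sp5 call was lost, leaving 1 gene higher, without each ESC library in turn. In TET TKO, edgeR called 0 of 18 tested family members in either direction, against 1.29% of 13939 genes called lower and 0.847% called higher, and the median log2 change was −0.18 against 0.02 over all genes. At an unadjusted p under 0.05, 4 of the 18 were higher, against 23.3% of all genes tested, and 7 lower, against 21.8%, and DESeq2 called 1, as higher, where it called 2.90% of all genes higher. That gene was Klf6, an immediate early family member, at 7.91, 8.11 and 9.18 RPKM in ESC and 17.9, 42.4 and 30.2 in TET TKO, with log2 1.73 and an adjusted p of 0.00362 in edgeR, 1.72 and 1.69e-08 in DESeq2. Without a filter on low counts edgeR called Klf6 as well, with log2 1.83 (adjusted p = 5.39e-07), and 1.70% of 33796 genes higher.

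In ESCs that received unmethylated fragments, CpGs around the KLF4 motif carried little methylation, and over all runs summed the scrambled fragment was largely methylated, though not in the 1 run that held both. This pool addresses the methylation that an unmethylated insert gains around a motif. Mean methylation over the 23 CpGs was 12.8% at KLF4 WT and 74.7% at KLF4 Sc, from a median of 49 and 1459 reads per CpG. The difference of WT minus Sc averaged over these CpGs, Δmet, was −62.0 points (95% Newcombe interval −69.0 to −49.7). All 23 CpGs were called lower at WT, where 45.2% of all CpGs tested over the 30 motifs were called lower, a call being an adjusted p under 0.05 in Fisher's exact test and a difference of at least 10 points. None was called higher, against 27.0% over all motifs. In run 4, the 1 run with reads of both fragments, Δmet was −9.64 points, with 8 CpGs called lower and 2 higher. For calls within runs, here and below, no share over all motifs was computed.

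The KLF4 WT profile was low along the whole fragment. At 8 of its CpGs no methylated read was found, from 49 reads each, which allows a level of up to 6.12%. The widest gap lay at −90 bp, 90 bp from the motif, with 0% against 89.9% (adjusted p = 1.97e-45, exact test), and the smallest at 46 bp, with 9.55% against 42.5%. The most methylated WT positions were −121 bp with 42.9%, −235 and −103 bp with 36.7% each and −187 bp with 34.7%. Inside the motif, WT read 28.2% and Sc 66.6%. Next to the motif, levels were 0% and 75.2% at −32 bp and 3.85% and 62.0% at 37 bp, and at the ends 0% and 67.4% at −291 bp and 30.8% and 73.4% at 252 bp.

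These summed levels came from different runs for the 2 KLF4 fragments. All KLF4 WT reads were from run 4, which gave 6.63% of the upstream Sc reads, while runs 1 and 5 gave 47.0% and 38.2%. In run 4, upstream methylation was 13.1% at WT and 15.9% at Sc, downstream methylation 11.7% and 45.9%, and the motif CpG, not called within runs, 28.2% and 22.0%. In the other runs KLF4 Sc stood upstream at 38.1% (run 3, 42 reads), 85.8% (run 6, 43 reads), 85.5% (run 5, 559 reads), 85.4% (run 1, 687 reads) and 84.1% (run 2, 34 reads). The scrambled fragment was thus nearly as low as WT upstream in the 1 run that could be compared, and higher in every other run. The Δmet in that run had an interval that holds 0 by Newcombe's method (−21.1 to 4.42) and one that leaves it out by the standard errors used within runs (−19.1 to −0.208), and the 2 CpGs called higher were −187 and −121 bp. The 5 downstream CpGs were all among the 8 called lower, with a mean of −34.2 points, beside −291, −275 and −208 bp.

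KLF7 in the same pool showed a smaller summed difference, with CpGs called lower upstream and at the motif. Mean methylation was 40.6% at WT and 72.2% at Sc (median 173 and 324 reads), a Δmet of −31.6 points (−40.0 to −22.6). The 18 upstream CpGs were called lower, with 39.2% against 82.2% on average, and 2 downstream CpGs, at 151 and 252 bp, were called higher (22.2% against 3.85%, and 82.4% against 46.2%). The largest drop was at −208 bp, from 85.2% to 12.6% (adjusted p = 2.66e-58, exact test). The KLF7 WT profile was uneven, from 12.6% at −208 bp to 77.6% at −84 bp upstream. The motif CpG read 29.0% at WT and 58.2% at Sc, and the nearest flanking CpGs 26.0% and 75.7% at −32 bp and 21.6% and 42.3% at 37 bp, the latter not called. At −291 bp the levels were 24.1% and 66.5%. Downstream, the Sc values rest on a median of 26 reads, and a minimum of 30 reads leaves 18 CpGs, a Δmet of −42.9 points and no CpG called higher. Nearly all downstream reads came from run 4, with a median of 73 at WT and 24 at Sc and levels of 45.2% and 32.0%. The 2 sides of the motif were thus read in different mixes of runs, and a boundary at the motif was not tested.

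Here too the 2 fragments were read mainly in different runs. Run 4 gave 77.0% of the upstream KLF7 WT reads and 8.64% of the Sc reads, and in it upstream methylation was 26.1% at WT and 23.5% at Sc. In run 5 the levels were 78.1% and 85.5% (21 and 132 reads), and in run 1 88.9% and 89.7% (19 and 156 reads). Runs 1, 2 and 5 differed in their upstream fragment counts by less than the sampling noise. Both KLF7 fragments were low in run 4 and high in runs 5 and 1. The motif CpG was higher at WT in run 4, with 21.3% against 5.77%, and in run 5, with 86.4% against 63.2%, lower in run 1, with 47.4% against 70.7%, and not called within runs. Within runs, Δmet was 1.69 points (−7.29 to 10.7), with 4 CpGs called lower and 5 higher, and without run 4 the summed Δmet was −4.44 points, with 4 CpGs lower and 1 higher. Without run 1, 1 CpG was called higher. Within runs the CpGs called lower were −208, −166, −101 and −32 bp, and those called higher −275, −235, −187, 151 and 252 bp. In run 4 alone Δmet was 4.88 points (−14.8 to 19.8), with 1 CpG lower and 6 higher. Against the mean of all Sc fragments KLF7 Δmet was −15.7 points (−22.8 to −8.27).

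Set against each other in this pool, KLF4 had the lower Δmet, by −30.4 points (−41.8 to −15.5), and by −19.1 points (−30.2 to −4.42) with a minimum of 30 reads. Between the WT fragments 20 of 23 CpGs were called lower at KLF4 and 0 higher, where 72.5% of CpGs were called over all pairs of WT fragments. Between the Sc fragments 3 were lower and 4 higher, where 66.5% were called over all pairs, and their means were 74.7% and 72.2%. The WT fragments could be read side by side in run 4, at 13.1% for KLF4 and 26.1% for KLF7 upstream and 11.7% and 45.2% downstream. Within runs the difference in Δmet was −11.3 points, with an interval that holds 0 (−24.4 to 1.69).

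Fragments methylated before insertion gave a clear separation of the 2 motifs in ESCs. This pool addresses the loss of methylation that an insert carried from the start. KLF4 WT stood at 12.8% and KLF4 Sc at 75.2% (median 86 and 526 reads), a Δmet of −62.4 points (−68.9 to −52.9). All 23 CpGs were called lower at WT, against 48.8% over all motifs, and 0 higher, against 13.6%. KLF7 WT stood at 67.2% and KLF7 Sc at 66.2% (726 and 667 reads), a Δmet of 0.999 points (−3.94 to 5.95), with 1 CpG called lower and 2 higher.

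The KLF4 difference was present at both ends of the fragment and inside the motif. It was widest at −88 bp, with 1.18% against 86.3% (adjusted p = 1.12e-56, exact test), and narrowest at −178 bp, with 34.9% against 54.0%. The motif CpG read 14.8% and 78.5%. Levels were 9.41% and 76.2% at −32 bp, 6.70% and 80.0% at 37 bp, 1.16% and 55.5% at −291 bp, and 37.9% and 74.8% at 252 bp. The highest WT level was 43.5% at −235 bp, and at −208 bp 0 of 85 reads were methylated, which allows up to 3.53%. Of the upstream WT reads 95.3% came from run 4, where WT was at 10.5% upstream and 19.0% downstream (81 and 627 reads) and Sc at 97.7% and 97.3% (68 and 617 reads). Most upstream Sc reads (86.7%) came from run 5, in which Sc was lower, at 71.4% upstream and 53.4% downstream. The gap between the KLF4 fragments was therefore wider in the shared run than over all runs, with a Δmet within runs of −85.3 points (−92.1 to −78.4) and 23 CpGs lower.

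At KLF7 the premethylated WT and Sc fragments had like levels around the motif and a different one inside it. The motif CpG was called higher at WT, with 72.3% against 42.3% (1244 and 873 reads). It was also higher within run 5, with 72.2% against 33.6%, and lower in run 4, with 76.9% against 100% from 13 and 14 reads. Outside the motif, the called CpGs were −264 bp (76.1% against 64.6%), −166 bp (49.9% against 62.3%) and −32 bp (84.0% against 68.5%). At 37 bp levels were 57.7% and 66.3%, at −291 bp 47.9% and 42.8% and at 252 bp 55.1% and 53.7%, none of them called. In run 5, which held 99.7% of the upstream WT reads and 72.2% of the Sc reads, upstream levels were 71.3% and 69.1%. KLF7 Sc was at 85.2% in run 3 and 62.5% in run 6, where WT had no upstream reads. Within runs Δmet was 2.42 points (−2.87 to 7.71), with 0 CpGs lower and 2 higher, at −101 and 46 bp, while −264, −166 and −32 bp were not called. The few calls moved with single runs, to 0 lower without run 3, 2 lower and 1 higher without run 5, and 1 higher without run 6.

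The difference in Δmet between KLF4 and KLF7 in this pool was −63.4 points (−71.6 to −52.7), and −87.7 within runs. WT against WT, all 23 CpGs were called lower at KLF4, where 67.3% of CpGs were called over all WT pairs. Sc against Sc, 2 were lower and 11 higher, where 57.4% were called over all Sc pairs. The 2 WT fragments were read in different runs upstream, KLF4 in run 4 and KLF7 in run 5, and side by side only downstream in run 4, where KLF4 WT was at 19.0% and KLF7 WT at 80.0% (11 reads). In run 5, where KLF4 WT had 4 upstream reads, the other 3 fragments stood at 71.4% (KLF4 Sc), 69.1% (KLF7 Sc) and 71.3% (KLF7 WT).

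In neural progenitors that derived from the untreated library, both WT fragments were less methylated than their scrambled versions, and the scrambled ones were close to full methylation. This pool addresses the differences between WT and Sc after differentiation. KLF4 WT was at 68.4% and Sc at 89.6% (252 and 1029 reads), a Δmet of −21.2 points (−27.4 to −15.4), with 16 CpGs called lower, against 30.8% over all motifs, and 0 higher, against 15.9%. KLF7 WT was at 85.0% and Sc at 95.6% (294 and 193 reads), a Δmet of −10.6 points (−15.6 to −5.29), with 7 lower and 1 higher.

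The KLF4 difference in NP was patchy along the fragment. CpGs called lower were −291, −264, −211 and −208 bp, a stretch of 7 from −166 to −88 bp with a mean of −29.4 points, and a stretch of 6 from −32 to 151 bp, motif included, with a mean of −34.6 points. Between them lay CpGs where WT was as methylated as Sc, such as −187 bp with 96.4% and 89.9% and −84 bp with 92.0% and 84.9%. Outside the motif, the largest drop was at −208 bp, with 42.3% against 87.7% (adjusted p = 3.30e-47, exact test). The lowest WT level was 30.8% at 151 bp, with 76.3% at Sc. Flanking the motif, levels were 69.9% and 89.6% at −32 bp and 55.0% and 91.8% at 37 bp, and at the ends 53.0% and 87.4% at −291 bp and 93.6% and 95.7% at 252 bp.

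Unlike in ESC −SssI, the KLF4 difference in this pool was as large inside single runs. Runs 9, 10 and 2 held both fragments, with upstream WT levels of 69.8%, 73.2% and 69.5% and Sc levels of 94.6%, 96.4% and 93.8%. The upstream fragment counts of these 3 runs differed by less than the sampling noise, and counting them once gave a Δmet of −20.6 points (−31.3 to −11.4). Runs 6, 11 and 8, without KLF4 WT reads upstream, had Sc at 83.4%, 93.5% and 84.9%. Within runs Δmet was −25.7 points (−32.2 to −19.2), with 16 CpGs lower and 0 higher. The motif CpG of KLF4 WT read 40.7% over all runs, against 86.8% at Sc. In runs 10 and 2, which had no downstream KLF4 WT reads, it was at 4.05% and 6.80% (74 and 103 reads), and in run 9, read by both amplicons, at 63.4% (276 reads). The motif CpG of KLF4 WT was therefore far lower in the runs where the upstream amplicon alone read this fragment. Its Sc value in these runs was 82.7% and 82.6%, and run 2 held a median of 4 downstream Sc reads.

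At KLF7 in NP the WT reductions were fewer and lay against a nearly complete methylation of Sc. KLF7 Sc had the highest mean of the 30 Sc fragments in this pool, whose median was 90.2%. At 13 of 18 upstream CpGs KLF7 Sc was at 100% to within 1 read. The CpGs called lower were −291, −275, −242, −148, −90, −32, the motif CpG and 109 bp, and −121 bp was called higher (85.8% against 75.8%), though within runs it was called lower. The largest drop was at −291 bp, with 66.6% against 99.5% (adjusted p = 4.22e-23, exact test), and the lowest WT level was 62.4% at −148 bp. The motif CpG read 83.1% and 94.0%, and the flanking ones 72.3% and 99.5% at −32 bp and 89.0% and 90.9% at 37 bp. At 252 bp levels were 93.3% and 97.5%. Upstream, runs 9, 10, 2 and 6 had WT at 83.4%, 82.5%, 84.0% and 93.3% and Sc at 100%, 99.7%, 99.6% and 100%, from 19 to 31 Sc reads each. WT was lower than Sc upstream in each of these runs, but the upstream fragment counts of runs 9, 10 and 2 differed by less than the sampling noise. With these look-alike runs counted once, Δmet was −8.41 points (−15.7 to −1.64), with 6 CpGs lower and 1 higher. In run 8 the order was the other way, with 94.4% at WT and 88.6% at Sc downstream (18 and 37 reads) and 95.2% and 83.9% at the motif CpG. Over the runs with both fragments, compared within runs, Δmet was −12.0 points (−17.5 to −6.49), with 10 CpGs lower and 1 higher, at 46 bp. Without run 6, 11 CpGs were called lower, and the number called higher was 2 without run 9 and 0 without run 11 or run 8. Against the mean of the Sc fragments of all motifs, in place of its own, KLF7 Δmet was −2.53 points with an interval that holds 0 (−7.05 to 1.10).

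KLF4 had the lower Δmet of the pair in NP −SssI as well, by −10.6 points (−18.8 to −2.95), and by −13.7 within runs. Against the mean of all Sc fragments the difference was −16.7 points (−23.7 to −9.61), and with look-alike runs counted once −12.2 points (−24.9 to −0.434). KLF4 WT was called lower than KLF7 WT at 14 of 23 CpGs and higher at 0, where 51.6% were called over all WT pairs. KLF4 Sc was lower than KLF7 Sc at 8 and higher at 1, where 37.7% were called over all Sc pairs. In runs 9, 10 and 2, which held all 4 fragments, KLF4 WT was upstream at 69.8%, 73.2% and 69.5% and KLF7 WT at 83.4%, 82.5% and 84.0%.

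In neural progenitors from the premethylated library, neither motif had a Δmet interval below 0 over all runs. KLF4 WT was at 71.6% and Sc at 60.4% (83 and 452 reads), a Δmet of 11.2 points with an interval that holds 0 (−0.178 to 20.9). Of the 23 CpGs, 11 were called higher at WT, against 9.84% over all motifs, and 3 lower, against 35.9%. KLF7 WT and Sc were both at 85.7% (429 and 198 reads), a Δmet of −0.0427 points (−5.59 to 6.27), with 3 CpGs lower and 4 higher.

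KLF4 Sc had the lowest mean of the 30 Sc fragments in this pool, whose median was 87.1%. It was nearly unmethylated in some runs and methylated in others. Upstream it was at 0.932% in run 9 (60 reads, 17 of 18 CpGs at or under 5%) and 3.64% in run 2 (105 reads), and downstream at 2.76% in run 10 (29 reads). In runs 1, 8 and 7 it was upstream at 73.3%, 64.5% and 95.6% (77, 23 and 186 reads). KLF4 WT had upstream reads in runs 9, 10 and 2, at 59.5%, 86.3% and 60.6% (21, 35 and 27 reads). The runs with WT reads were thus those with low Sc levels. Within runs Δmet was 59.2 points (51.4 to 67.0), with 22 CpGs higher and 0 lower, for which no share over all motifs was computed. Without run 7, which gave 41.2% of the upstream Sc reads, it was 35.9 points over the other runs, with 20 CpGs higher. Without run 1 it was 13.6 points (2.03 to 23.6) and without run 8 11.6 points (0.135 to 21.3), both with intervals above 0. Leaving out run 2 gave 2.10 points with 5 CpGs higher, and leaving out run 10 gave 6 CpGs lower and 6 higher. Against the mean of all Sc fragments the direction turned, with a Δmet of −15.2 points (−25.7 to −6.67).

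Along the fragment, KLF4 WT in NP +SssI held 1 CpG that was nearly unmethylated. At −101 bp WT was at 7.32% and Sc at 61.4% (82 and 448 reads, adjusted p = 1.78e-20, exact test), while 2 bp away, at −103 bp, WT was at 93.9%. The other CpGs called lower were 109 bp (69.0% against 81.0%) and 151 bp (43.4% against 68.5%). The widest gap the other way was at −275 bp, with 100% against 53.3%. The motif CpG read 75.1% and 76.5% over all runs, but 72.7% and 0% in run 9 (0 of 86 Sc reads), 82.5% and 3.45% in run 10 and 71.0% and 9.94% in run 2, and within runs it was called higher. Flanking levels were 94.0% and 61.2% at −32 bp and 87.6% and 77.2% at 37 bp, and those at the ends 91.6% and 57.1% at −291 bp and 84.8% and 75.0% at 252 bp. Within runs −101 bp was the 1 CpG of the 23 not called.

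KLF7 in the same pool differed in sign between positions. The CpGs called lower were −291 bp (62.0% against 82.9%), −211 bp (60.1% against 87.8%) and −208 bp (66.7% against 90.1%). Those called higher were −242, −148, −88 and −84 bp, with −148 bp at 89.7% against 73.9%. The motif CpG read 82.0% and 90.3% (88.4% and 76.4% in run 8, where the order was the other way), and the flanking ones 89.8% and 98.5% at −32 bp and 75.9% and 71.3% at 37 bp. At 252 bp levels were 74.7% and 72.9%. In run 1 upstream levels were 93.1% at WT and 89.1% at Sc, and in run 8 82.5% and 57.9% (189 and 24 reads), while run 6, with 68.0% of the upstream Sc reads, held no WT reads and had Sc at 93.7%. Within runs Δmet was 10.3 points (3.66 to 17.0), with 2 CpGs lower and 9 higher, and without run 6 it was 10.4 points (0.783 to 22.6), with 9 CpGs higher. Without run 8 it was 0.342 points (−5.54 to 6.70), and without run 1 5 CpGs were lower and 2 higher.

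The difference in Δmet of KLF4 minus KLF7 in NP +SssI was 11.2 points with an interval that holds 0 (−1.77 to 22.4). It was 48.9 points within runs (38.7 to 59.2) and −14.1 points against the mean of all Sc fragments (−25.0 to −4.77). Without run 1 it was 18.05 points (4.09 to 30.5), and without run 7 36.0 points (22.4 to 47.6). It fell to 0.769 points without run 6, 2.26 without run 2, 2.60 without run 10 and 7.46 without run 9. WT against WT, KLF4 was lower at 12 CpGs and higher at 3, where 56.3% were called over all WT pairs. Sc against Sc, it was lower at 18 and higher at 0, where 36.5% were called over all Sc pairs. The direction of the contrast thus depended on which reference was subtracted.

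In premethylated ESCs that lack TET enzymes, both KLF WT fragments stayed highly methylated. This pool addresses the same loss in cells without TET proteins. KLF4 WT was at 85.5% and Sc at 77.2% (160 and 130 reads), a Δmet of 8.27 points (−0.687 to 17.5), with 1 CpG called lower, against 20.2% over all motifs, and 5 higher, against 23.1%. KLF7 WT was at 86.4% and Sc at 79.0% (219 and 167 reads), a Δmet of 7.41 points (−0.143 to 15.3), with 0 lower and 9 higher. Both intervals hold 0.

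Many upstream CpGs of the WT fragments in TET TKO cells shared one level. At 11 of 18 KLF4 WT had 85.6% to within 1 read, and at 11 of 18 KLF7 WT had 91.8%. Over all 23 CpGs KLF4 WT ran from 71.5% to 94.97%, while KLF7 WT was lower downstream, at 61.3% to 84.0% with its lowest level at 151 bp, than upstream, at 82.2% to 92.2%. KLF4 WT was lowest at −101 bp, as in NP +SssI, with 71.5% against 86.9% at Sc (adjusted p = 0.00403, exact test), and the highest excess was at 151 bp, with 90.3% against 52.9%. The other CpGs called higher at KLF4 WT were −187, −148, −84 and 37 bp. At KLF7 the 9 CpGs called higher were all upstream, from −211 to −84 bp, led by −166 bp with 92.2% against 64.7% (adjusted p = 3.03e-10, exact test). The motif CpGs read 80.4% and 78.2% for KLF4 and 81.1% and 72.3% for KLF7, neither called. Next to the motif, KLF4 had 78.5% and 74.6% at −32 bp and 90.3% and 63.5% at 37 bp, and KLF7 89.8% and 88.6% and 84.0% and 77.6%. At the ends, KLF4 had 85.6% and 76.9% at −291 bp and 90.3% and 91.9% at 252 bp, and KLF7 91.3% and 90.4% and 72.9% and 77.6%.

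All upstream reads of this pool were from run 10, where KLF4 stood at 84.2% and 77.6% and KLF7 at 90.2% and 80.4%. Downstream, KLF4 WT and Sc were at 98.2% and 100% in run 9, 85.8% and 73.2% in run 10, and 84.9% and 74.3% in run 11. KLF7 WT and Sc were there at 90.9% and 82.3%, 64.7% and 69.3%, and 67.4% and 71.1%. The motif CpG differed in direction between runs, with KLF4 at 62.2% and 96.6% in run 9, 86.0% and 74.3% in run 10 and 85.4% and 81.0% in run 11. For KLF7 it was at 100% and 82.1%, 82.6% and 68.4%, and 64.5% and 76.8%. Runs 10 and 11 differed in their downstream fragment counts by less than the sampling noise. Within runs Δmet was 7.20 points (−1.86 to 16.3) for KLF4 and 7.59 points (0.265 to 14.9) for KLF7. Without run 10, which leaves the 5 downstream CpGs, it was 14.4 and 0.591 points, with 2 and 0 CpGs called higher and none lower, and the KLF4 interval lay above 0 (7.59 to 20.9). Without run 11 KLF7 Δmet was 7.78 points (0.317 to 15.5), and with the look-alike runs counted once 7.85 points (0.394 to 15.6). Against the mean of all Sc fragments both turned negative, at −3.36 (−9.65 to 1.28) and −2.44 points (−7.62 to 1.48). KLF4 and KLF7 differed in Δmet by 0.863 points (−11.0 to 12.8), by −0.389 within runs, by −0.915 against the mean of all Sc fragments, and by 13.8 without run 10 (1.77 to 25.3). KLF4 WT was lower than KLF7 WT at 5 CpGs and higher at 4, where 44.5% were called over all WT pairs, and for Sc the numbers were 6 and 3, where 45.5% were called over all Sc pairs.

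Comparing each fragment with itself between pools separates the WT from the Sc side of these differences. With and without premethylation in ESCs, KLF4 had like means over all runs, at 12.8% in both for WT, and at 75.2% and 74.7% for Sc. KLF4 WT had 4 CpGs called lower in +SssI, against 21.8% over all fragments, and 4 higher, against 40.7%, and KLF4 Sc 6 and 4. KLF7 WT rose from 40.6% to 67.2%, with 1 CpG lower and 18 higher, and KLF7 Sc had 8 lower and 3 higher (72.2% in −SssI, 66.2% in +SssI). The KLF7 WT rise turned over without run 4 of ESC −SssI, the run that held most of its reads. Over the 18 upstream CpGs that remain it was at 83.2% in −SssI and 71.3% in +SssI, with 12 CpGs lower and 2 higher, and KLF7 Sc had 13 and 0. Without run 5 of ESC +SssI, KLF7 WT had 0 lower and 2 higher over 5 CpGs, KLF7 Sc had 7 higher, and KLF4 Sc, then at 95.9%, had 0 lower and 17 higher. KLF4 Sc had 1 higher without run 4 of either pool, and 3 and 2 lower without runs 5 and 1 of ESC −SssI, while KLF7 Sc had 1 higher without run 4 of ESC +SssI and 4 lower without run 1 of ESC −SssI. KLF4 WT has no value without run 4 of either pool. The Δmet difference of +SssI minus −SssI was −0.419 points for KLF4 (−14.4 to 11.4) and 32.6 points for KLF7 (22.3 to 42.4). Within runs these became −75.6 points (−87.3 to −64.0) and 0.732 points (−9.69 to 11.2), and against the mean of all Sc fragments −11.5 points (−24.8 to −0.542) and 15.0 points (6.80 to 22.8). Without run 4 of ESC −SssI, the KLF7 value was 5.44 points (−5.28 to 21.0), and without run 5 of ESC +SssI the KLF4 value was −21.5 points (−35.3 to −7.96).

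In NP the Sc fragments had lower levels with premethylation. KLF4 Sc was at 60.4% in +SssI and 89.6% in −SssI, with 22 CpGs called lower, against 27.7% over all fragments, and 0 higher, against 12.8%. KLF7 Sc had 13 lower and 1 higher, at 85.7% and 95.6%. The WT fragments moved in both directions, with 6 lower and 9 higher for KLF4 (71.6% and 68.4%) and 5 and 4 for KLF7 (85.7% and 85.0%). Higher CpGs numbered 5 for KLF4 WT without run 9 and 7 for KLF7 WT without run 6 of NP −SssI. KLF7 Sc had 8 lower without run 8 of NP +SssI, and 0 higher without run 6 of NP +SssI or run 11 of NP −SssI. The Δmet difference was 32.4 points for KLF4 (19.6 to 43.9) and 10.6 points for KLF7 (2.87 to 18.6). Against the mean of all Sc fragments it was 3.95 points (−7.86 to 14.4) and 1.36 points (−3.77 to 6.79), and within runs 84.9 and 22.3 points. Without run 7 of NP +SssI the KLF4 value was 57.1 points (43.8 to 69.1), and without run 6 of NP +SssI the KLF7 value was 21.02 points. For KLF7 it was 8.03 points (−0.713 to 17.6) with look-alike runs counted once, 7.15 points (−0.695 to 15.5) without run 9 of NP −SssI, and 6.15 points (−3.02 to 15.4) without run 1 of NP +SssI.

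From ESC to NP, the unmethylated-insert WT fragments were more methylated in NP at every CpG outside the motif over all runs. For KLF7 this depended on run 4 of ESC −SssI, which also gave all KLF4 WT reads of that pool. KLF4 WT went from 12.8% to 68.4% and KLF7 WT from 40.6% to 85.0%, both with 23 of 23 CpGs called higher in NP, against 78.6% over all fragments, and 0 lower, against 2.54%. Without that run, KLF7 WT was at 83.2% in ESC and 85.1% in NP over the 18 upstream CpGs that remain, with 4 CpGs higher and 3 lower, and KLF4 WT had no reads in ESC. The Sc fragments were higher at 13 (KLF4) and 18 (KLF7) CpGs and lower at 0. For KLF4 Sc the 13 became 7 without run 4, 20 without run 5 and 21 without run 1 of ESC −SssI, and for KLF7 Sc the 18 became 9 without run 4. KLF7 Sc had 1 CpG lower without that run, and without run 6, 9, 10 or 2 of NP −SssI. The Δmet difference was 40.8 points for KLF4 (27.0 to 49.9) and 21.0 points for KLF7 (10.7 to 30.9). Against the mean of all Sc fragments it was 24.4 (10.9 to 33.0) and 13.2 points (4.47 to 21.1), and with a minimum of 30 reads 32.3 points for KLF7. Both differences turned negative within runs, at −16.0 (−27.5 to −4.57) and −13.7 points (−24.2 to −3.16), and without run 4 of ESC −SssI the KLF7 value was −6.15 points (−16.9 to 9.49). Klf4 RNA fell between these cell types and Klf7 RNA was not called, and whether either bears on the methylation values was not tested.

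Among premethylated fragments, KLF4 WT rose from 12.8% in ESC to 71.6% in NP, with 22 CpGs called higher, against 69.9% over all fragments, and 0 lower, against 4.14%. KLF4 Sc went the other way, with 14 lower and 0 higher (75.2% and 60.4%). Both KLF7 fragments rose, WT at 18 of 23 CpGs with 0 lower and Sc at 16 with 1 lower, near the share of 69.9% over all fragments. These counts moved with single runs. Without run 5 of ESC +SssI, KLF7 WT had 0 of 5 CpGs higher, KLF7 Sc 9 higher and 3 lower, and KLF4 Sc 23 lower. Of the NP +SssI runs, KLF4 Sc had 9 lower and 1 higher without run 9, 4 and 4 without run 2, and 22 lower without run 7. KLF7 Sc had 6 lower without run 6 and 0 without run 1 or run 8. Without run 4 of ESC +SssI, KLF4 Sc had 11 lower and 5 higher, and KLF4 WT has no value. The Δmet difference was 73.6 points for KLF4 (58.8 to 85.3), 144 within runs and 39.8 against the mean of all Sc fragments, and −1.04 points for KLF7 (−8.48 to 6.97). For KLF7 it was 7.89 points within runs (−0.607 to 16.4) and 9.43 points (−1.41 to 22.6) without run 6 of NP +SssI.

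The TET TKO pool shares its comparison pool, ESC +SssI, with the contrast just given. ESC reads were filtered on methylation outside CpGs and TET TKO reads were not, so filter and knockout cannot be told apart. KLF4 WT was at 85.5% in TET TKO and 12.8% in ESC, with 23 CpGs called higher, against 73.8% over all fragments, and 0 lower, against 3.45%. KLF4 Sc had 3 lower and 6 higher. KLF7 WT had 15 higher and 0 lower, and KLF7 Sc 11 higher and 1 lower. Without run 10 of TET TKO, which leaves 5 CpGs, KLF4 WT, KLF7 WT and KLF7 Sc had all 5 higher and 0 lower, and KLF4 Sc 1 lower and 1 higher. Without run 5 of ESC +SssI, KLF7 WT had 1 of 5 lower and 0 higher, KLF7 Sc 7 lower and 8 higher, and KLF4 Sc 20 lower and 0 higher. Without run 4 of ESC +SssI, KLF4 Sc had 1 lower and 10 higher, and KLF4 WT has no value. The Δmet difference was 70.7 points for KLF4 (57.6 to 81.9), 92.5 within runs, and 51.7 (41.0 to 58.9) against the mean of all Sc fragments. For KLF7 it was 6.41 points (−2.62 to 15.7), and −0.409 without run 10 of TET TKO and −1.75 against the mean of all Sc fragments.

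Placed among the 30 motifs from the lowest Δmet upward, with reads summed over runs, KLF4 was in place 2 in both ESC pools, 5 in NP −SssI, 30 in NP +SssI and 24 in TET TKO +SssI. KLF7 was in places 9, 25, 6, 23 and 21. These places carry the differences between runs given above: within runs Δmet in ESC −SssI was −9.64 points for KLF4 and 1.69 for KLF7, and in NP +SssI it was 59.2 points for KLF4, against −15.2 with the mean of all Sc fragments as reference. The median Δmet over all motifs was −8.38, −12.6, −1.99, −4.05 and 1.39 points in the same order. The fragment without a motif was at 60.3%, 63.2%, 91.0%, 87.6% and 89.3%, and the median Sc fragment at 58.4%, 68.7%, 90.2%, 87.1% and 92.1%. KLF4 Sc and KLF7 Sc lay above that median in ESC −SssI and below it in TET TKO. KLF7 Sc was the highest of the Sc fragments in NP −SssI, and KLF4 Sc the lowest in NP +SssI. Some positions recurred over the 10 combinations of motif and pool. The CpG at 151 bp was the least methylated of the Sc fragment in 6 of them, and of the WT fragment in 3. The CpG at −103 bp was the most methylated of the Sc fragment in 3, KLF4 and KLF7 in ESC −SssI and KLF4 in ESC +SssI.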

How the data were processed

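Per the file headers, labels and submitters' processing notes, the authors trimmed reads (Trim Galore 0.4.4 or Trimmomatic 0.38), mapped amplicons with Bismark 0.20.0 and RNA with STAR 2.6.1b to GRCm38, and used R 3.6.2 and edgeR. The deposited RNA values are counts per gene (featureCounts 1.6.2, without strand, so overlapping or antisense genes cannot be told apart). The deposited pool tables hold counts of UMI-deduplicated and of methylated reads per fragment, CpG and run. Reads were filtered on methylation outside CpGs, except in TET TKO cells. The authors also deposited percent methylation per CpG, used here as a check: 96 values per pool differed from the summed counts by at most 0.0005 points.

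Members and lists were chosen with earlier results of these data known. Reads were summed over runs, positions −300 to 260, with at least 10 reads per CpG and fragment. Two-sided Fisher's exact tests (scipy 1.17.1, Python 3.11.15, pandas 2.3.3, numpy 2.4.6) ran over all motifs, all pairs of motifs or all fragments of a contrast, with Benjamini-Hochberg adjustment. Calls needed an adjusted p under 0.05 and 10 points. Newcombe 95% intervals used the mean level and the median read number, and differences of Δmet combined them (MOVER). Limits at 0 methylated reads are 3 counts. Within runs, CpGs with 10 reads of both fragments in a run were weighted by read numbers and tested by an exact test stratified by run, with intervals from binomial standard errors. Shares of CpGs called over all motifs or fragments were computed for reads summed over all runs only. Counts within runs or with a run left out therefore cannot be set against such a share.

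RNA was tested in R 4.3.3 with edgeR 4.0.16 (TMM, quasi-likelihood, genes reaching 1 RPKM in any library, adjusted p under 0.001, 3-fold). The libraries of a group are described as biological replicates, with no word on whether their cultures were separate, so p-values measure the spread between libraries. Scripts were tested on simulated data. Named CpGs were those in the motif, next to it, at the ends, at the extremes and at the limits of called stretches; others given were chosen after their values were seen. Named genes were Klf4, Klf7, called KLF and SP family members (Klf6 was chosen after its values were seen), Tet1, Tet2, Tet3, and markers of ESC, NP, endoderm, mesoderm, trophoblast and fibroblasts. Alternatives were minimums of 1 and 30 reads, comparison within runs, look-alike runs (chi-square p of at least 0.05) counted once, the mean of all Sc fragments as reference, each run or library left out, DESeq2 1.42.0, library sizes alone, no filter, a replicate block and a fit of all 3 groups. Leaving out runs in comparisons of 1 fragment between pools was added after its values were seen. In 2 pools (ESC −SssI and NP +SssI) the labels of 2 samples, 1 of them titled with a capillary sequencer, name the same table, which was entered as 1 pool. Single-line and siRNA samples were not used here. Motif and barcode sequences were not used here.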

Additional observations from a re-analysis of the deposited data

Results flagged for a closer look

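For 7 contrasts the WT minus Sc difference itself differed between pools, with a 95% interval of the difference that leaves out 0. For KLF4, Δmet was higher in NP +SssI than in NP −SssI by 32.4 points (19.6 to 43.9), from −21.2 to 11.2 points, and against the mean of all Sc fragments by 3.95 points (−7.86 to 14.4). Without run 7 of NP +SssI it was 57.1 points (43.8 to 69.1). For KLF4 without premethylation it was higher in NP than in ESC by 40.8 points (27.0 to 49.9), against the mean of all Sc fragments by 24.4 points (10.9 to 33.0), and within runs the sign turned. With premethylation the same comparison gave 73.6 points (58.8 to 85.3), the widest of the 7, and 39.8 points against the mean of all Sc fragments. Between TET TKO and ESC, both premethylated, KLF4 Δmet differed by 70.7 points (57.6 to 81.9). Against the mean of all Sc fragments it differed by 51.7 points (41.0 to 58.9), more than the 39.8 points above. Which contrast was wider thus depended on the reference. For KLF7 in ESC, Δmet was higher in +SssI than in −SssI by 32.6 points (22.3 to 42.4), which against the mean of all Sc fragments was 15.0 points (6.80 to 22.8), within runs 0.732 points and without run 4 of ESC −SssI 5.44 points (−5.28 to 21.0). In NP the KLF7 difference between +SssI and −SssI was 10.6 points (2.87 to 18.6). It was 8.03 points (−0.713 to 17.6) with look-alike runs counted once, 1.36 points (−3.77 to 6.79) against the mean of all Sc fragments, 7.15 points (−0.695 to 15.5) without run 9 of NP −SssI and 6.15 points (−3.02 to 15.4) without run 1 of NP +SssI, all with intervals that hold 0, and 21.02 points without run 6 of NP +SssI. For KLF7 without premethylation, NP and ESC differed by 21.0 points (10.7 to 30.9), by 13.2 points (4.47 to 21.1) against the mean of all Sc fragments and by −6.15 points (−16.9 to 9.49) without run 4 of ESC −SssI, and within runs the sign turned. Each pool is 1 library set, so these values compare libraries.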

How the results depend on the processing

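Of 45 methylation results each, 45 kept their direction and side of the threshold, or as counts stayed within 1.5 times, with a minimum of 1 read, 44 with 30 reads, 42 with look-alike runs counted once and 25 within runs, as did 14 of 25 against the mean of all Sc fragments and 810 of 909 values without 1 run or library. The minimum of 1 read changed no value. Some runs left out held few or no reads of these fragments, and cases without a value are not counted. These numbers therefore do not measure how firm the results are. Of 8 RNA results, 8 did with library sizes alone and with all 3 groups, 7 with DESeq2 and 7 without a filter. In ESC −SssI, comparison within runs gave 8 CpGs lower and 2 higher for KLF4, and for KLF7 a Δmet of 1.69 points with 4 lower and 5 higher, so that KLF4 minus KLF7 was −11.3 points. There, KLF7 had 0 CpGs higher with 30 reads and 1 with look-alike runs counted once. Without single runs, KLF7 Δmet ranged from −34.1 to −4.44 points, with 4 to 18 CpGs lower and 1 to 2 higher. KLF4 has no value without run 4, which held all its WT reads. In ESC +SssI, KLF7 Δmet was −0.689 points against all Sc fragments, with 0 CpGs lower within runs, and without single runs 0 to 2 lower and 1 to 2 higher. In NP −SssI, KLF7 Δmet was −2.53 points against all Sc fragments, with 7 to 11 CpGs lower and 0 to 2 higher without single runs. In NP +SssI, KLF4 Δmet was 59.2 points within runs (0 CpGs lower, 22 higher) and −15.2 against all Sc fragments, and 2.10 to 35.9 without single runs, with 2 to 6 CpGs lower and 5 to 20 higher. KLF7 Δmet there was 10.3 points within runs with 9 CpGs higher, and −4.45 to 10.4 without single runs, with 2 to 5 lower and 2 to 9 higher. KLF4 minus KLF7 was 48.9 points within runs, −14.1 against all Sc fragments and 0.769 to 36.0 without single runs. In TET TKO +SssI, KLF4 Δmet was −3.36 points against all Sc fragments and 7.67 to 14.4 without single runs, with 0 to 1 CpGs lower and 2 to 5 higher. KLF7 Δmet was 7.59 points within runs, 7.85 with look-alike runs counted once, −2.44 against all Sc fragments and 0.591 to 7.78 without single runs, with 0 to 9 CpGs higher. KLF4 minus KLF7 was −0.389 points within runs, −0.915 against all Sc fragments and 0.684 to 13.8 without single runs. Between pools, the KLF4 difference for ESC +SssI minus −SssI was −75.6 points within runs, −11.5 against all Sc fragments and −21.5 to −0.188 without single runs. For NP +SssI minus −SssI it was 3.95 against all Sc fragments, and for NP minus ESC −SssI −16.0 within runs. For KLF7, ESC +SssI minus −SssI gave 0.732 points within runs and 5.44 to 35.1 without single runs. NP +SssI minus −SssI gave 8.03 with look-alike runs counted once, 1.36 against all Sc fragments and 6.15 to 21.02 without single runs. NP minus ESC −SssI gave −13.7 within runs and −6.15 to 24.4 without single runs, and NP minus ESC +SssI 7.89 within runs and −5.45 to 9.43 without single runs. TET TKO minus ESC +SssI gave −1.75 against all Sc fragments and −0.409 to 7.03 without single runs. KLF and SP genes called higher in NP numbered 1 to 2 without single libraries, and in TET TKO 1 with DESeq2 and 1 without a filter. For single fragments between pools, without single runs of either (chosen after the values were seen), ESC +SssI minus −SssI gave 0 to 9 CpGs lower and 1 to 17 higher for KLF4 Sc, 0 to 12 and 2 to 19 for KLF7 WT, and 4 to 13 and 0 to 7 for KLF7 Sc. NP +SssI minus −SssI gave 5 to 11 higher for KLF4 WT, 4 to 7 higher for KLF7 WT, and 8 to 13 lower and 0 to 1 higher for KLF7 Sc. NP minus ESC −SssI gave 7 to 21 higher for KLF4 Sc, 0 to 3 lower and 4 to 23 higher for KLF7 WT, and 0 to 1 and 9 to 21 for KLF7 Sc. NP minus ESC +SssI gave 4 to 23 lower and 0 to 5 higher for KLF4 Sc, 0 to 21 higher for KLF7 WT, and 0 to 6 lower and 9 to 20 higher for KLF7 Sc. TET TKO minus ESC +SssI gave 5 to 23 higher for KLF4 WT, 1 to 20 lower and 0 to 10 higher for KLF4 Sc, 0 to 1 and 0 to 16 for KLF7 WT, and 0 to 7 and 5 to 12 for KLF7 Sc. KLF4 WT has no value without run 4 of either ESC pool. The cause was not tested for any of these.

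Replicate numbers did not pair the RNA libraries: same-numbered libraries correlated at −0.0656, 0.0131 and −0.157 between ESC and NP and −0.0944, 0.355 and 0.214 between ESC and TET TKO, and not every sample correlated best with its own number. With the number as a block, 1 KLF or SP gene was called higher in TET TKO, 6 were called lower in NP against 5 without it, and the calls of Klf4 and Klf7 did not change.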
